A study of Rattus norvegicus with 16 samples.

Results

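A set of 9 genes of extracellular proteolysis was followed through the first 48 h after traumatic brain injury in rat cortex. It holds 3 members of the plasminogen system (the activators Plat and Plau and the receptor Plaur), 3 matrix metalloproteinases (Mmp3, Mmp9 and Mmp12), 2 proteases of the ADAMTS family (Adamts1 and Adamts9) and the metalloproteinase inhibitor Timp1. They were chosen by name, and each was measured by the probe sets that carry its symbol and no other, 13 of the 20826 probe sets with a single gene symbol. The set therefore held 9 of 14217 genes. Adamts9, Mmp9, Plau and Plaur had 2 probe sets each and the other 5 genes had 1.

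Plasminogen activators cut plasminogen into plasmin, a protease that dissolves fibrin and can activate several metalloproteinases, and Plaur holds the activator encoded by Plau at the cell surface. Matrix metalloproteinases cut collagens, laminins and other matrix proteins, such as those of basement membranes, ADAMTS proteases cut proteoglycans such as versican and brevican, and the TIMP proteins bind and block metalloproteinases. In brain these enzymes are known for acting on the vessel wall and on the matrix around neurons after injury, and tissue plasminogen activator, the product of Plat, is also used as a clot-dissolving drug.

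The injured groups came from male Wistar rats, 8 weeks old, whose lateral cortex was bruised by a moderate fluid percussion, a brief pressure pulse delivered through an opening in the skull. The contused cortex was taken 3, 6, 12 or 48 h later, with 3 arrays at each time. The sham rats, of the same sex, strain and age, carried the same craniectomy, made 48 h before the procedure, but received no pressure pulse, and gave 1 array at each of the 4 times. The study treats the shams of 3, 6 and 12 h as 1 control group, here called the early shams (n = 3), and sets the 48 h injury against the lone 48 h sham. All rats were perfused with saline, and polyadenylated RNA of the tissue was hybridised to Affymetrix arrays. Shared animals or days between arrays are not stated in the labels, so p-values measure the spread between these arrays, which may be technical.

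Each deposited value is a log intensity, taken here as log2 because the base is not stated, minus the median of its probe set over the 16 arrays. A value of 0 is thus a gene's middle array, and values show how arrays differ but neither a gene's level nor its detection, so the presence of cortex markers could not be checked. Differences are injured minus sham on this log2 scale with the standard error (SE) of a limma model of all 6 groups, and called means an adjusted p under 0.05 over all 14217 genes. The most similar arrays still differed (root mean square 0.195), so none was a duplicate. Across genes, values had an SD of 0.387 in injured 48 h array 2 and 0.372 in injured 12 h array 2, against 0.199 to 0.31 in the other 14 arrays. Injured 12 h array 2 also had a mean of -1.69 over the 24 polyA spike-in probe sets, against -0.181 to 0.495 elsewhere. This array enters the common estimate of the spread for every comparison, and calls of members that are gained or lost without it are given both ways.

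At 3 h Adamts1, Adamts9 and Plat were called higher than in the early shams, and at 6 h the same 3 genes were called. At 12 h the called genes were Adamts1, Adamts9, Mmp3 and Timp1, and at 48 h Mmp12 was called against the early shams. No member was called lower against shams at any time. Passing the threshold at 1 time and not at another does not show that times differ, and the steps between times, tested directly, gave calls for Timp1 from 3 to 6 h, for no member from 6 to 12 h and for 4 members, all lower, from 12 to 48 h.

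Over all 14217 genes, 0.485% were called higher at 3 h, 1.98% at 6 h and 3.49% at 12 h, beside 3, 3 and 4 of the 9 members. Called lower were 0.0985% of all genes at 3 h, 0.682% at 6 h and 1.38% at 12 h. All 3 injured arrays lay above all 3 early shams for 3 of the 9 members at 3 h (7.48% of all genes), for 8 at 6 h (10.8%) and for 8 at 12 h (10.5%). The median log2 difference of the 9 members was 0.07 at 3 h, 0.75 at 6 h and 0.77 at 12 h, against -0.01, -0.02 and -0.02 over all genes. When injured 12 h array 2 was left out of the model, 7 members instead of 3 were called at 6 h, with Mmp3, Mmp9, Plau and Plaur added, and 628 instead of 379 genes were called in all. The remaining members at 6 h were Timp1 (adjusted p = 0.0569 in that fit) and Mmp12 (adjusted p = 0.972).

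Some markers of blood, and at 6 and 12 h some of microglia, also moved. Of 6 erythrocyte markers listed, 3 were measured, and the haemoglobin gene Hbb was 10.6-fold higher at 3 h (adjusted p = 0.0071), 14.8-fold at 6 h (adjusted p = 0.000886) and 5.79-fold at 12 h (adjusted p = 0.0123), while Alas2 and Slc4a1 were not called. The mean of the 3 ranged from 0.24 to 0.75 in the injured arrays at 3 h, 0.53 to 1.20 at 6 h, -0.33 to 0.54 at 12 h and -0.74 to -0.64 at 48 h, against -1.01 to -0.40 in the early shams and -1.03 in the 48 h sham. Of 12 microglia markers listed 9 were measured, and 3 were called lower at 6 h and 4 at 12 h. Among them were P2ry12 (-2.39 ± 0.30 at 6 h, adjusted p = 0.000469), Tmem119 and Gpr34. Other microglia markers were not called. At 6 and 12 h Aif1 differed by 0.055 and 0.062, Cx3cr1 by -0.29 and 0.04 and Csf1r by -0.60 and -0.19. The mean of the 9 ranged from -0.21 to 0.21 in the injured arrays at 3 h, -0.76 to -0.32 at 6 h and -0.68 to -0.51 at 12 h. In the early shams it was 0.17 to 0.32. Choroid plexus markers (6 of 7 measured) averaged 0.18, 0.98 and 1.26 in the injured arrays at 3 h. They averaged -0.13 to 0.14 at 6 h and 0.08 to 1.06 at 12 h, against -0.07 to -0.02 in the early shams. None of them was called at these times, and Ttr differed most at 3 h (4.24 ± 1.19, adjusted p = 0.189). The part of blood, of microglia or of choroid plexus in the members' values was not tested.

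**Figure D1:**
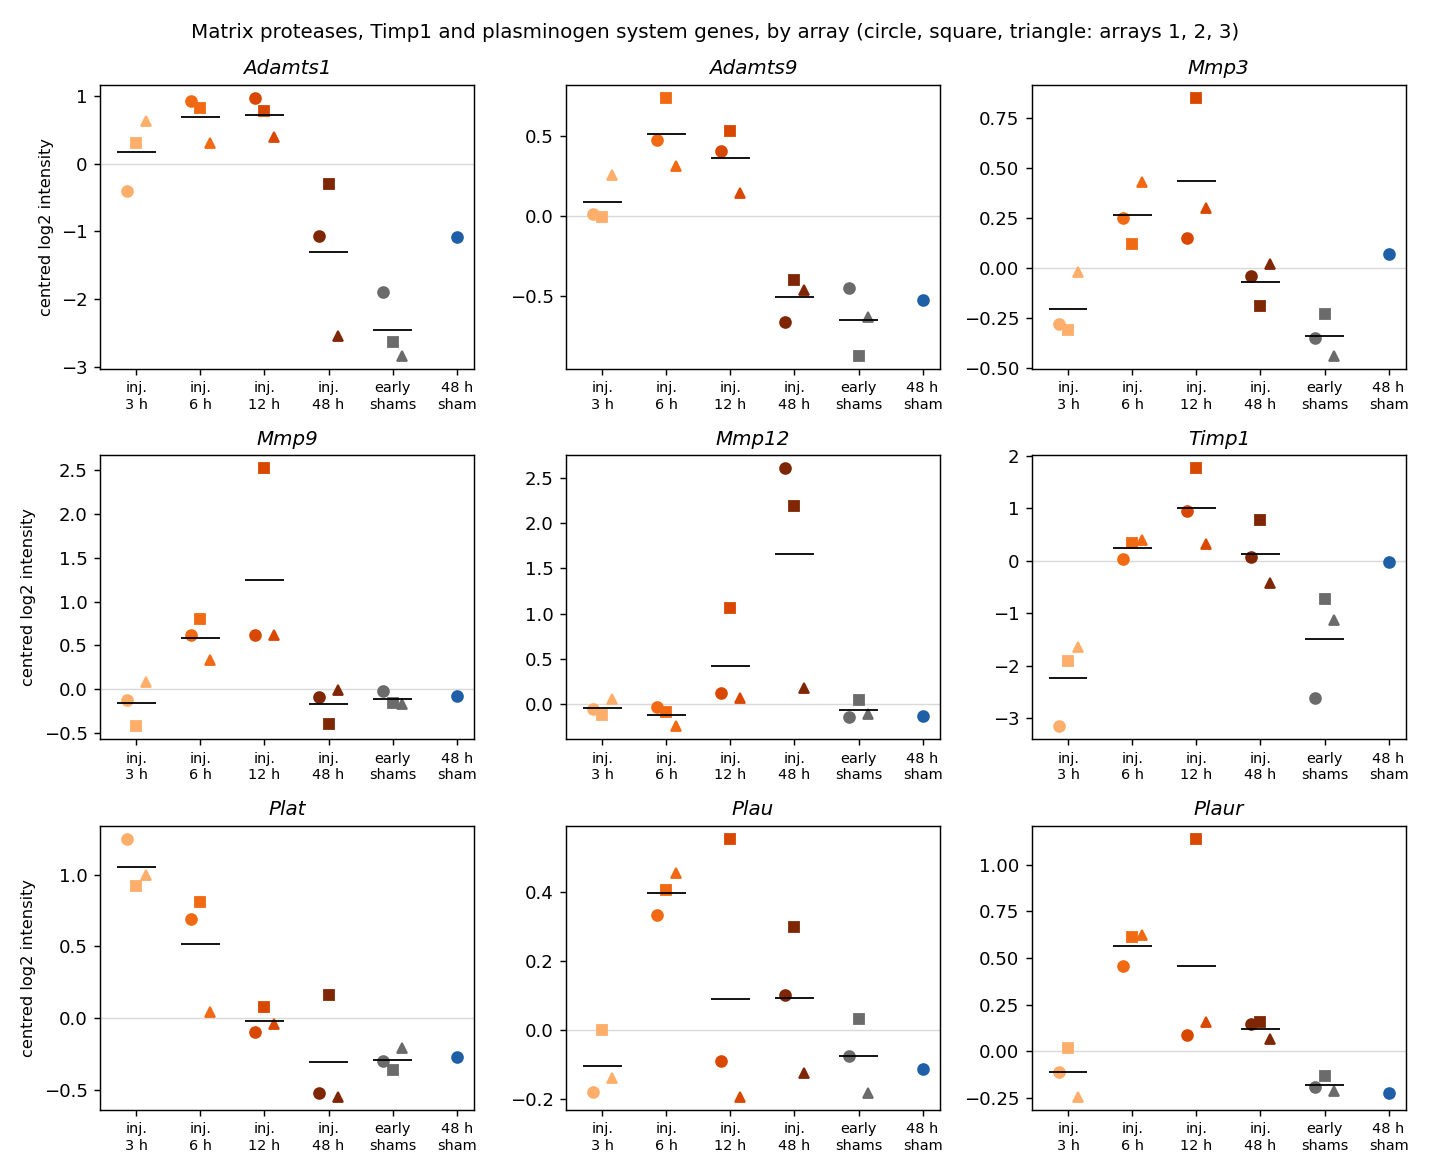
Centred log2 intensity of each gene (mean of its probe sets) on every array, with injured groups at 3, 6, 12 and 48 h left of the early shams and the 48 h sham. Circles, squares and triangles are arrays 1, 2 and 3 (for the early shams those of 3, 6 and 12 h), and lines are group means. Plat is highest at 3 h, Plaur at 6 h with 1 high array at 12 h, and Mmp12 in 2 arrays at 48 h.

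Plat, which encodes tissue plasminogen activator, had its highest values at 3 h. Its values were 1.25, 0.92 and 1.0 in the injured arrays at 3 h, 0.69, 0.81 and 0.04 at 6 h, -0.10, 0.08 and -0.04 at 12 h, and -0.52, 0.16 and -0.55 at 48 h, against -0.30, -0.36 and -0.21 in the early shams and -0.27 in the 48 h sham. Every array at 3, 6 and 12 h lay above every early sham, by least at 12 h, whereas 2 of the 3 arrays at 48 h lay below them. Plat rose 2.54-fold at 3 h (log2 1.35 ± 0.20, adjusted p = 0.00582) and remained called whichever of the 6 arrays was left out. At 6 h it was 1.75-fold higher (0.80 ± 0.20, adjusted p = 0.0477). That call was kept in 1 of 6 fits with an array left out, with an adjusted p of up to 0.224, and was lost with probe sets tested one by one (adjusted p = 0.0505). The difference was 0.27 ± 0.20 at 12 h (adjusted p = 0.487), and the steps between times did not pass the threshold. The step from 3 to 6 h was -0.54 ± 0.20 (adjusted p = 0.217), but with quantile normalization it was -0.93 and called lower (adjusted p = 0.0158). That normalization gives every array the same spread of centred values.

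Plau and Plaur, the urokinase gene and the gene of its receptor, were not called at 3 h, and their highest group means came at 6 h. The more variable Plaur probe set, 1387269_s_at, is of a kind whose probes can match more than 1 transcript, and which transcripts these are was not checked. It gave 0.91, 1.21 and 1.31 in the injured arrays at 6 h and 0.12, 2.24 and 0.23 at 12 h, against -0.34, -0.14 and -0.39 in the early shams. At 3 h its values were -0.26, -0.12 and -0.44, and at 48 h 0.30, 0.35 and -0.17, against -0.43 in the 48 h sham. All arrays at 6 and 12 h lay above all early shams, but at 12 h injured array 2 stood far above the other 2. The second Plaur probe set, 1371286_at, differed by 0.06 ± 0.09 at 6 h and 0.13 ± 0.09 at 12 h. Averaged over both, Plaur differed by 0.75 ± 0.20 at 6 h (adjusted p = 0.0663) and by 0.64 ± 0.20 at 12 h (adjusted p = 0.085). Without injured 12 h array 2 the SE at 6 h fell to 0.08 and Plaur was called (adjusted p = 0.000134), while the 12 h difference was 0.30 ± 0.09 (adjusted p = 0.101). The difference from the early shams at 48 h was 0.30 ± 0.20 (adjusted p = 0.381), or 0.30 ± 0.08 and called with that array out of the model (adjusted p = 0.0239).

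For Plau, probe set 1387675_at gave 0.61, 0.51 and 0.52 in the injured arrays at 6 h, against -0.13, 0.02 and -0.17 in the early shams. Its values were -0.07, -0.02 and -0.25 at 3 h, 0.10, 0.73 and -0.14 at 12 h, and 0.32, 0.54 and -0.35 at 48 h, against -0.16 in the 48 h sham. The 3 arrays at 6 h lay close together and above the shams, and those at 12 and 48 h spread across the sham range. The second probe set, 1398287_at, moved less, by 0.31 ± 0.16 at 6 h. The gene differed by 0.48 ± 0.16 at 6 h (adjusted p = 0.159), and by 0.48 ± 0.10 without injured 12 h array 2 in the model (adjusted p = 0.017).

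A further 14 genes of the plasminogen system were measured. At 3, 6 and 12 h 0, 1 and 2 of these 14 were called higher and 0, 0 and 1 lower. Fgl2, which encodes a membrane prothrombinase, rose by 2.66 ± 0.36 at 6 h (adjusted p = 0.00102) and 2.40 ± 0.36 at 12 h, and S100a10, whose product binds plasminogen at the cell surface with annexin, rose by 1.17 ± 0.29 at 12 h (adjusted p = 0.0369). Serpini1 fell by 0.46 on the log2 scale at 12 h (SE 0.08, adjusted p = 0.00467). It encodes neuroserpin, an inhibitor of tissue plasminogen activator made by neurons. The mean of 12 neuron markers was -0.13 to -0.07 in the injured arrays at 12 h, against 0.08 to 0.18 in the early shams. The part of neurons in the Serpini1 values was not tested. The protease nexin gene Serpine2 differed by 0.06 ± 0.07, -0.10 ± 0.07 and -0.24 ± 0.07 at 3, 6 and 12 h (adjusted p at least 0.0816). The median over the 17 measured genes of the list, members included, was -0.01 at 3 h, 0.21 at 6 h and 0.24 at 12 h.

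**Figure D2:**
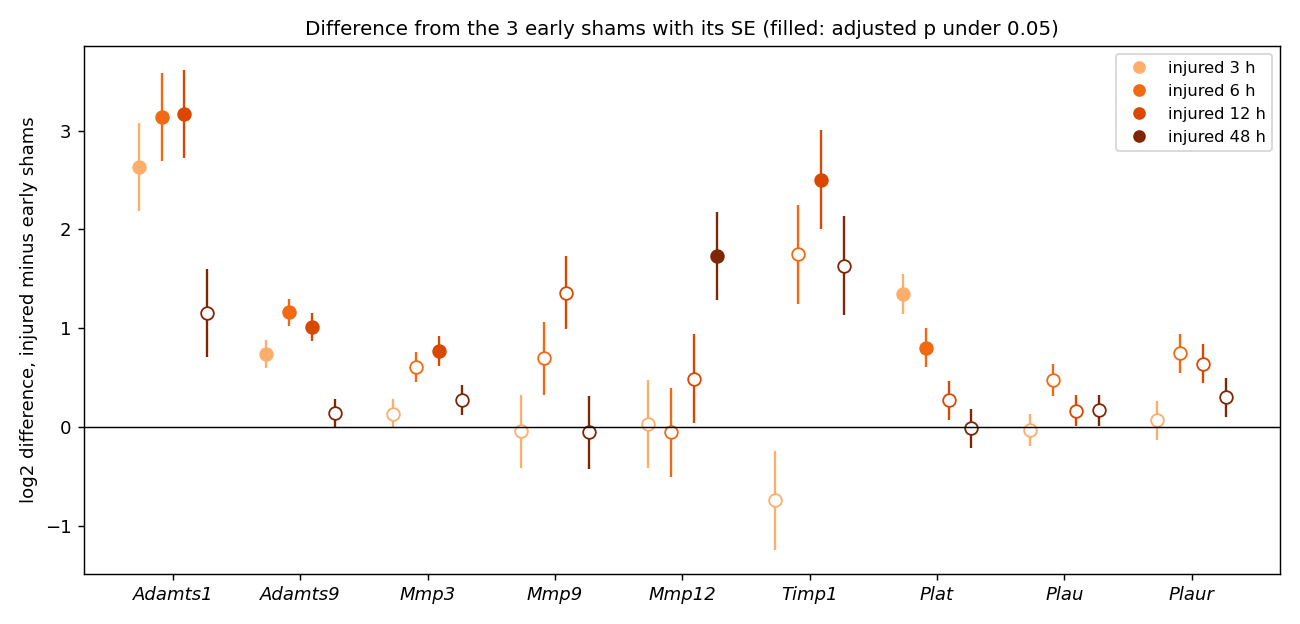
Log2 difference of each gene between the 3 injured arrays of a time and the 3 early shams, in the order 3, 6, 12 and 48 h, with bars of 1 SE and filled points where the adjusted p was under 0.05. Adamts1 reaches 3.17 at 12 h, while Mmp12 is near 0 until it reaches 1.73 at 48 h.

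Of the metalloproteinase members, Mmp3 was called at 12 h, while the calls of Mmp9 at 12 h and of Mmp12 at 48 h depended on the fit. Mmp3, which encodes stromelysin, an enzyme that also activates other metalloproteinases, gave 0.15, 0.85 and 0.30 in the injured arrays at 12 h and 0.25, 0.12 and 0.43 at 6 h, against -0.35, -0.23 and -0.44 in the early shams. At 3 h it gave -0.28, -0.31 and -0.02, and at 48 h -0.04, -0.19 and 0.02, against 0.07 in the 48 h sham. All arrays at 6, 12 and 48 h lay above all early shams, and those of 48 h lay below the 48 h sham. The difference from the early shams was 0.77 ± 0.15 at 12 h (1.71-fold, adjusted p = 0.0101), a call kept in all 6 fits with an array left out, and 0.61 ± 0.15 at 6 h (adjusted p = 0.0502). From 12 to 48 h Mmp3 fell by 0.50 on the log2 scale (SE 0.15, adjusted p = 0.0388), a call kept in 3 of 6 fits with an array left out and lost, for example, without injured 12 h array 2 (-0.295, adjusted p = 0.125).

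Mmp9, the gelatinase that neutrophils carry in granules, had its highest values at 12 h. Probe set 1398275_at gave 0.81, 2.96 and 0.86 in the injured arrays at 12 h and 0.84, 1.13 and 0.74 at 6 h, against -0.18, -0.11 and -0.32 in the early shams. At 3 h it gave -0.22, -0.42 and 0.20, and at 48 h -0.18, -0.38 and 0.11, against -0.22 in the 48 h sham. The arrays of 6 and 12 h lay above all shams, injured 12 h array 2 by far the most, and those of 3 and 48 h overlapped the shams. By itself this probe set was called at 12 h (1.75 ± 0.41, adjusted p = 0.0274), while the second one, 1369166_at, differed by 0.97 ± 0.33 (adjusted p = 0.13). Averaged over both, Mmp9 differed by 1.36 ± 0.37 at 12 h and missed the threshold (adjusted p = 0.0509). Without injured 12 h array 2 the difference was smaller and its error also, at 0.73 ± 0.16, and it was called (adjusted p = 0.0292), as it was without array 1 or array 3 of that time. Without any 1 of the 3 early shams it was not called (adjusted p 0.111 to 0.144). At 6 h the difference was 0.70 ± 0.37 (adjusted p = 0.427), or 0.70 ± 0.14 and called with that array out of the model (adjusted p = 0.0135). Mmp9 fell by 1.41 on the log2 scale from 12 to 48 h (SE 0.37, adjusted p = 0.0204), and by 0.78 without the array (adjusted p = 0.00861), with the call kept in 4 of 6 fits with an array left out.

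Neutrophil markers were high in the same arrays as Mmp9. Of the 12 listed, 8 were measured, and Mpo, Elane, Prtn3 and Ltf were not. The mean of the 8 was 0.89, 2.06 and 1.76 in the injured arrays at 6 h and 1.73, 2.32 and 1.58 at 12 h, against -0.41, -0.46 and -0.18 in the early shams. It was -0.36 to -0.19 at 3 h, and 0.01, 1.002 and -0.06 at 48 h, against -0.01 in the 48 h sham. At 12 h 4 of the 8 were called higher (S100a8, S100a9, Cxcr2 and Il1r2), at 6 h 3. Injured 12 h array 2 was the highest array in both Mmp9 and the marker mean, but injured 48 h array 2, with a marker mean of 1.002, had the values -0.41 and -0.38 on the Mmp9 probe sets. In whole tissue a change in the number of cells of a type and a change in RNA per cell cannot be told apart, and the part of neutrophils in the Mmp9 values was not tested.

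**Figure D3:**
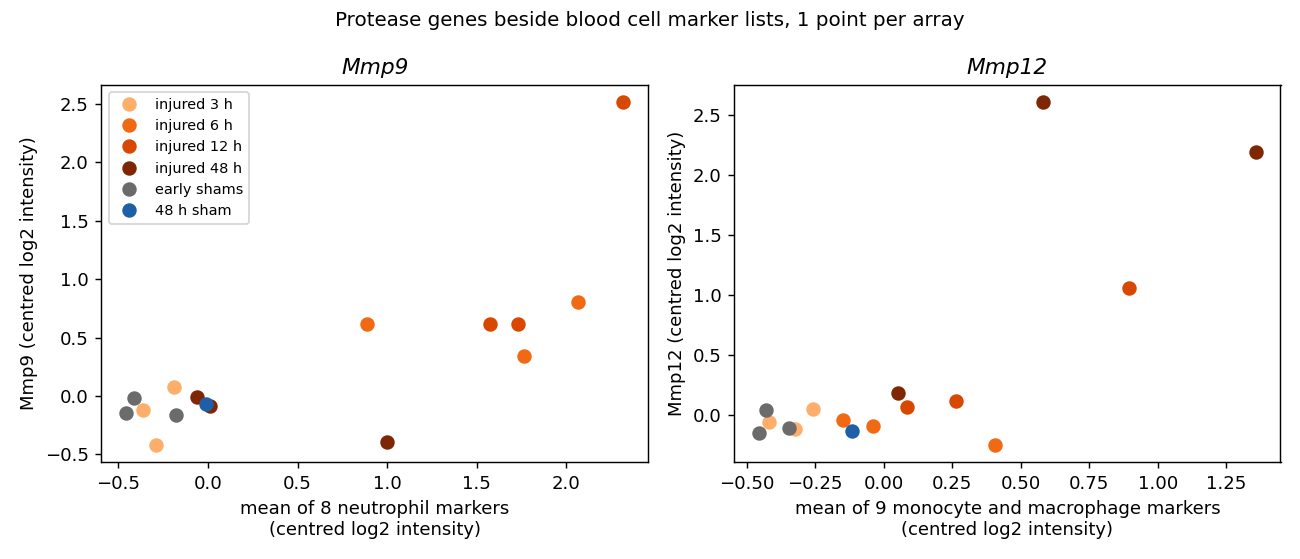
Left, Mmp9 against the mean of 8 neutrophil markers, and right, Mmp12 against the mean of 9 monocyte and macrophage markers, all in centred log2 intensity with 1 point per array. The injured arrays of 6 and 12 h are high in neutrophil markers and lie above the shams in Mmp9, and 2 of the injured 48 h arrays are high in both measures on the right.

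Mmp12 encodes macrophage elastase. It gave 2.61, 2.19 and 0.18 in the injured arrays at 48 h, against -0.13 in the 48 h sham and -0.15, 0.04 and -0.11 in the early shams. At 12 h it gave 0.12, 1.06 and 0.07, at 6 h -0.04, -0.09 and -0.25, and at 3 h -0.06, -0.12 and 0.05. Thus 2 of the 3 arrays at 48 h and injured 12 h array 2 stood out, and injured 48 h array 3 was only a little above the shams. Mmp12 was 3.32-fold higher at 48 h than in the early shams (log2 1.73 ± 0.45, adjusted p = 0.0273). Without injured 48 h array 3 the difference was 2.47 ± 0.23 (adjusted p = 2.29e-05), and leaving out any of the 5 other arrays ended the call (adjusted p up to 0.126), as did a model of only these 2 groups (adjusted p = 0.112). The step from 12 to 48 h was 1.24 ± 0.45 (adjusted p = 0.0766). Against the single 48 h sham the difference was 1.79 ± 0.63 (adjusted p = 0.515), and 2.53 ± 0.31 without injured 48 h array 3 (adjusted p = 0.00205).

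Monocyte and macrophage markers, of which 9 of 10 listed were measured, averaged 0.58, 1.36 and 0.05 in the injured arrays at 48 h, against -0.11 in the 48 h sham. The early shams lay between -0.45 and -0.35. At 48 h the array low in Mmp12, array 3, was also the lowest in these markers, while the other 2 were in opposite order. Array 3 was also the lowest of these 3 in Adamts1, Timp1 and the neutrophil marker mean. Injured 6 h array 3 and injured 12 h array 1 had higher macrophage marker means than it (0.40 and 0.26). Their Mmp12 values were -0.25 and 0.12. Cd68, a lysosomal protein gene of macrophages and activated microglia, rose by 2.98 ± 0.45 at 48 h against the early shams (adjusted p = 0.00187), and Cd14 and Lyz2 were the other 2 of the 9 called. Microglia markers (9 of 12 measured) averaged 1.19, 1.56 and 1.14 in the injured arrays at 48 h, against 0.55 in the 48 h sham. They did not single out array 3 of that time. The part of either cell type in the Mmp12 values was not tested.

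Mmp12 and Mmp3 lie in a cluster of metalloproteinase genes on chromosome 8, which also holds the measured genes Mmp13, Mmp10, Mmp8 and Mmp7. These 4 were not called against the early shams at any time. Mmp8, the neutrophil collagenase gene, differed by 0.56 ± 0.14 at 6 h (adjusted p = 0.0535) and Mmp13 by 0.30 ± 0.08 (adjusted p = 0.0547), and Mmp10 by 0.07 ± 0.08. At 48 h the differences from the early shams were 0.16 for Mmp8, 0.07 for Mmp13, 0.01 for Mmp10 and 0.19 for Mmp7, beside 1.73 for Mmp12. Of the 15 metalloproteinase list genes measured other than the members, 0 were called with limma at 3, 6 or 12 h, while 1, 4 and 3 had an unadjusted p under 0.05. Over all 14217 genes 1358, 2029 and 2909 had an unadjusted p under 0.05 at 3, 6 and 12 h. Mmp2, the constitutive gelatinase gene, differed by 0.18 ± 0.11, -0.04 ± 0.11 and -0.00 ± 0.11 at 3, 6 and 12 h. It rose at 48 h against the early shams (0.61 ± 0.11, adjusted p = 0.00546), but against the 48 h sham 0 of all genes were called. Mmp14, which encodes a membrane-bound activator of the Mmp2 product, differed by -0.04 ± 0.21, -0.11 ± 0.21 and 0.42 ± 0.21 at 3, 6 and 12 h. The list's median stayed between -0.04 and -0.00 at these times.

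Adamts1 had the largest differences of the 9 genes at 3, 6 and 12 h. This versican-cutting protease gene gave -0.41, 0.31 and 0.63 in the injured arrays at 3 h, 0.93, 0.82 and 0.30 at 6 h and 0.97, 0.77 and 0.39 at 12 h, against -1.90, -2.63 and -2.84 in the early shams. The lowest injured array of these times was above the highest early sham by more than 1 on the log2 scale. Adamts1 rose 6.21-fold at 3 h (log2 2.63 ± 0.45, adjusted p = 0.0138), 8.82-fold at 6 h (3.14 ± 0.45, adjusted p = 0.0015) and 8.98-fold at 12 h (3.17 ± 0.45, adjusted p = 0.00105). The calls at 6 and 12 h were kept in all 6 fits with an array left out, and that at 3 h in 2 of 6 (adjusted p up to 0.0919). At 48 h the injured arrays gave -1.07, -0.30 and -2.54, against -1.08 in the 48 h sham. They spread on both sides of that sham, with array 3 down among the early shams. Adamts1 fell by 2.01 on the log2 scale from 12 to 48 h (SE 0.45, adjusted p = 0.009), in all 6 fits with an array left out. Its difference from the early shams at 48 h was 1.15 ± 0.45 (adjusted p = 0.122), or 1.77 and called without injured 48 h array 3 (adjusted p = 0.00451).

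Adamts9, a protease gene of the same family, followed a like course on 1 of its 2 probe sets. Probe set 1376481_at gave 0.00, 0.00 and 0.38 in the injured arrays at 3 h, 1.15, 1.32 and 0.62 at 6 h, 0.84, 1.0 and 0.46 at 12 h and -1.37, -0.83 and -1.07 at 48 h, against -0.82, -1.61 and -1.27 in the early shams and -1.03 in the 48 h sham. The arrays of 3, 6 and 12 h all lay above the shams, and those of 48 h lay among them. By itself this probe set was 2.57-fold higher at 3 h (adjusted p = 0.0137), 4.80-fold at 6 h (log2 2.26 ± 0.22, adjusted p = 8.29e-05) and 4.00-fold at 12 h (adjusted p = 0.000182). Probe set 1394518_at stayed within -0.20 and 0.15 on all 16 arrays and differed by 0.12, 0.06 and 0.02 at these times. The mean of both was called at 3 h (0.74 ± 0.14, adjusted p = 0.0295), 6 h (1.16 ± 0.14, adjusted p = 0.000376) and 12 h (1.01 ± 0.14, adjusted p = 0.000934), and it fell by 0.87 from 12 to 48 h (adjusted p = 0.00139). The 3 h call was kept in 1 of 6 fits with an array left out (adjusted p up to 0.166), and the other 3 calls in all 6.

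**Figure D4:**
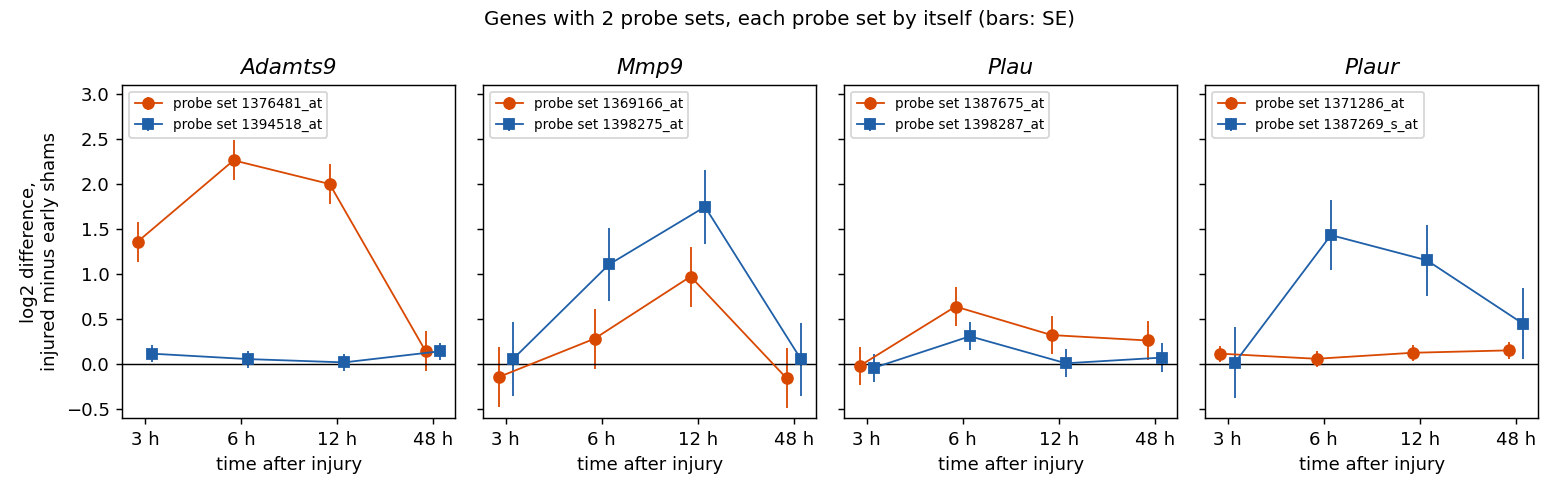
Log2 difference between injured arrays and early shams (bars: 1 SE, n = 3 each) for the genes with 2 probe sets, each probe set by itself. In Adamts9 and Plaur 1 probe set moves and the other stays near 0, while in Mmp9 both are highest at 12 h and in Plau both at 6 h.

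Of the other ADAMTS and ADAM genes, 16 of 24 listed were measured. Adamts4, an aggrecan- and brevican-cutting protease gene, rose at 6 h (1.01 ± 0.22, adjusted p = 0.0259), with differences of 0.88 ± 0.22 at 3 h (adjusted p = 0.132) and 0.67 ± 0.22 at 12 h (adjusted p = 0.107). Adam8, a protease gene of leukocytes, rose at 12 h (0.62 ± 0.14, adjusted p = 0.0211). None of the 16 was called with limma at 3 h, where 3 had an unadjusted p under 0.05, beside 1358 of all 14217 genes. At 6 and 12 h Adamts4 and Adam8 were the single further calls. The median of the 18 measured genes, members included, was -0.01, 0.04 and 0.09 at 3, 6 and 12 h.

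Timp1, the inducible member of the TIMP inhibitors, was higher at 6 h than at 3 h in injured cortex, and the sham of 6 h was higher than that of 3 h too. It gave -3.16, -1.91 and -1.64 in the injured arrays at 3 h, 0.03, 0.33 and 0.39 at 6 h, 0.94, 1.76 and 0.32 at 12 h and 0.06, 0.77 and -0.43 at 48 h. The shams gave -2.61, -0.74 and -1.14 at 3, 6 and 12 h and -0.03 at 48 h. The 3 h sham was thus as low as the injured arrays of its time, and all injured arrays of 6, 12 and 48 h lay above all 3 early shams. Timp1 rose 5.67-fold at 12 h (log2 2.50 ± 0.50, adjusted p = 0.0113), a call kept in 5 of 6 fits and lost without injured 12 h array 2 (2.13 ± 0.53, adjusted p = 0.0564). Differences were -0.74 ± 0.50 at 3 h (adjusted p = 0.716), 1.75 ± 0.50 at 6 h (adjusted p = 0.0897) and 1.63 ± 0.50 at 48 h (adjusted p = 0.0559), the last called without injured 12 h array 2 in the model (adjusted p = 0.04). With the 3 h sham alone as control the 3 h difference was 0.37, of the opposite sign, and with the 6 h sham alone the 6 h difference was 0.99 (adjusted p = 0.851).

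Timp1 was the only member called in the step from 3 to 6 h (2.49 ± 0.50, adjusted p = 0.0308), a step that takes no account of the shams and in which 0.795% of all genes were called higher. The call was kept in 1 of 6 fits with an array left out (adjusted p up to 0.155). With injured 12 h array 2 out of the model, Mmp3, Mmp9, Plau and Plaur were called higher in the step too. From 6 to 12 h 0 members were called with limma, 1 had an unadjusted p under 0.05, and 0.0141% of all genes were called in either direction (1249 genes with an unadjusted p under 0.05). From 12 to 48 h 4 members fell (Adamts1, Adamts9, Mmp3 and Mmp9), against 7.14% of all genes called lower.

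The other TIMP genes were not called higher at 3, 6 or 12 h. Timp2 differed by -0.21 ± 0.12, -0.38 ± 0.12 and 0.02 ± 0.12 at 3, 6 and 12 h and Timp3 by -0.16 ± 0.13, -0.27 ± 0.13 and -0.20 ± 0.13, none of them called. Timp4, an inhibitor gene expressed in brain, fell by 0.66 on the log2 scale at 12 h (SE 0.16, adjusted p = 0.0323). Tfpi2, which encodes a secreted inhibitor of plasmin and other serine proteases, was called at all 3 times, at 2.38 ± 0.48 (adjusted p = 0.041), 3.56 ± 0.48 (adjusted p = 0.000901) and 2.43 ± 0.48 (adjusted p = 0.0103). Of the 9 measured inhibitor genes other than Timp1, Tfpi2 and Timp4 were those called at 3, 6 or 12 h, and Tfpi2 acts mainly on serine proteases rather than metalloproteinases. The median of all 10 was -0.14, -0.25 and -0.17 at these times.

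Genes of the matrix that these proteases cut moved in both directions. Of 27 measured matrix genes 0, 1 and 2 were called higher and 1, 4 and 5 lower at 3, 6 and 12 h. The laminin gene Lamc1 rose at 6 h (1.07 ± 0.11, adjusted p = 0.000153) and 12 h (0.94 ± 0.11), and the basement membrane collagen gene Col4a1 at 12 h (0.997 ± 0.23, adjusted p = 0.0227). The fibrillar collagen gene Col1a2 fell by 2.00 at 3 h (adjusted p = 0.0249), 1.93 at 6 h and 1.56 at 12 h on the log2 scale (SE 0.37 each), and Col3a1 fell by 2.14 at 6 h (SE 0.48, adjusted p = 0.0308). Meninges and fibroblast markers, a list that includes these fibrillar collagens, averaged -0.67 to -0.13 in the injured arrays at 6 h, against 0.14 to 0.62 in the early shams. Endothelium markers averaged -0.63 to -0.52 at 6 h, against -0.00 to 0.08 in the early shams. The part of these cells in the matrix gene values was not tested.

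At 48 h Adamts1, Timp1 and Mmp3 had higher differences against the early shams than against the 48 h sham. In the model of all 16 arrays none of the 3 was called against either. Against the 48 h sham 0 of 9 members were called with limma, as were 0% of all genes in either direction, with 1 member and 1061 genes at an unadjusted p under 0.05. The differences were -0.22 ± 0.63 for Adamts1, 0.02 ± 0.20 for Adamts9, 0.16 ± 0.71 for Timp1 and -0.14 for Mmp3, and Plat, Plau, Plaur and Mmp9 lay between -0.09 and 0.35. Against the early shams Mmp12 was called, 1 of 9, beside 6.37% of all genes called higher. The 48 h sham lay above all 3 early shams in Adamts1 (1.38 ± 0.63, adjusted p = 0.723), Timp1 (1.47 ± 0.71, adjusted p = 0.747) and Mmp3 (0.41 ± 0.21, adjusted p = 0.765), 3 of 9 members, beside 27.4% of all genes. It lay below all 3 in Plaur, 1 of 9 members, beside 28.2% of all genes. In that comparison of shams 0 members were called with limma, 1 had an unadjusted p under 0.05, and 0.00703% of all genes were called in either direction (973 with an unadjusted p under 0.05). With a single 48 h sham its own spread is not known and was assumed to equal that of the other groups.

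Over the 16 arrays the members fell into courses that were alike to different degrees, given here as Pearson correlations without a test, since arrays share groups and the injury. Adamts1 and Adamts9 correlated at 0.892, Plau and Plaur at 0.879, Mmp3 and Mmp9 at 0.864 and Mmp3 and Plaur at 0.831. Injured 12 h array 2 was the highest array in Mmp3, Mmp9, Timp1, Plau and Plaur. All correlations given here include that array, and none was computed without it. Mmp12 correlated with Mmp9 at 0.022 and with Mmp3 at 0.074, and Plat with Timp1 at -0.362. Among 562 genes with an SD of at least 0.5, those most like Adamts1 were the monocyte chemokine gene Ccl2 (0.969), the transcription factor gene Cebpd (0.965) and the mRNA-decay gene Zfp36 (0.940). Those most like Mmp9 were the sphingosine kinase gene Sphk1 (0.956), the neutrophil chemokine receptor gene Cxcr2 (0.924) and C3h15orf48 (0.901). For Mmp12 they were Slamf9 (0.939), the macrophage gene Cd68 (0.928) and the filament gene Nes (0.918).

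Plat was most like Il1a (0.925), Ccl4 (0.915) and Cxcl2 (0.908), genes of a cytokine and of chemokines. Adamts9 was most like the adhesion molecule gene Mcam (0.957), the feedback inhibitor gene Socs3 (0.937) and the kinase gene Map2k3 (0.928), and Timp1 most like Ifitm1 (0.887), Nek6 (0.886) and the interferon-pathway gene Irf9 (0.885). Plaur was most like the neuropeptide gene Gal (0.935), the syndecan gene Sdc1 (0.899) and the chaperone partner gene Bag3 (0.898). Mmp3 followed Stk40 (0.893), S1pr3 (0.887) and C3h15orf48 (0.870). Plau had the weakest likeness, with Spidr at 0.852, Calcb at 0.812 and Igsf6 at 0.796.

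Promoter windows of 250 bases before to 50 after the start, from RefSeq on GRCr8, were at hand for 7 of the 9 genes, all but Mmp9 and Plat. They were searched on both strands for the AP-1 motif TGAGTCA, the CRE motif TGACGTCA, the STAT motif TTCNNNGAA, the PEA3 motif AGGAAG and the kappaB motif. The AP-1 motif was found in Mmp3, Mmp12 and Plaur, 3 of 7, and in 4.64% of 33365 rat promoter windows. The PEA3 motif was in 3 of 7 (Mmp3, Plaur and Timp1) against 34.5% of windows, the kappaB motif in 1 of 7 (Adamts9) against 7.53%, and the CRE and STAT motifs in 0 of 7 against 1.83% and 8.88%. The 3 windows with an AP-1 match are shown to give the letters around the motif. Of these genes Mmp3 and Plaur correlated at 0.831 over all arrays, injured 12 h array 2 included. Mmp12 correlated with Mmp3 at 0.074 and with Plaur at 0.203. The 250 bases before the start are given on the plus strand, which is the strand of all 3 genes, with the AP-1 match in capitals.
Plaur, chr1:89181113-89181362: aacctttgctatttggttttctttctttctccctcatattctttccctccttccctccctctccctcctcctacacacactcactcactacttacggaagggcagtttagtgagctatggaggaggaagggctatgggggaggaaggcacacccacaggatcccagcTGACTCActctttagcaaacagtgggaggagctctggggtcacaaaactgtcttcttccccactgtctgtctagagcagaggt
Mmp3, chr8:12925031-12925280: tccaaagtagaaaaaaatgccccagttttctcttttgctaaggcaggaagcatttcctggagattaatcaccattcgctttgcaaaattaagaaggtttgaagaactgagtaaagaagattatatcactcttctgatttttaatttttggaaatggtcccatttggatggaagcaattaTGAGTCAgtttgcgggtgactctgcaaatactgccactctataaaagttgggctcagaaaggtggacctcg
Mmp12, chr8:12866402-12866651: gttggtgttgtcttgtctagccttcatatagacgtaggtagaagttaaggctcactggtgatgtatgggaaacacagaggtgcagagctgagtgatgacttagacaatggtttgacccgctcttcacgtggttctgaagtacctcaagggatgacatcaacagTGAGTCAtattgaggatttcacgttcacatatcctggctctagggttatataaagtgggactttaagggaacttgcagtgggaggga
The match begins 83 bases before the start in Plaur, on the opposite strand, 71 bases before it in Mmp3 and 87 bases before it in Mmp12. The matches overlap none of the other motifs searched. They describe letters in a window, and binding there was not measured.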

How the data were processed

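The deposited table holds RMA log intensities (taken as log2) of 31099 probe sets on 16 arrays, and RMA is named in the submitters' processing notes. The authors' steps beyond that are not given in the sources used here. Each probe set of the deposited log2 values has a median of 0 over the arrays. Probe sets that are controls (57) or have no gene (9780) or several symbols (436) were not used. Gene identifiers gave 20758 current symbols, and probe sets of a gene were averaged. A linear model of the 6 groups was fitted with limma (version 3.58.1, R 4.3.3) (10 residual degrees of freedom), with Benjamini-Hochberg adjustment over 14217 genes. The test was run on simulated data first. Members, gene lists and marker lists were chosen with earlier results of these data known. Genes named from a list are up to 4 called non-members with the largest difference at 3, 6 or 12 h and a fixed panel, and the 3 genes most like each member by Pearson r. Alternatives were other probe set rules, normalizations, filters, controls and models, and leaving out each array. For arrays their number limits the precision.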

Additional observations from a re-analysis of the deposited data

Results flagged for a closer look

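Between injury times the effect against the same early shams differed, by the test of the step itself, for 5 members. Timp1 was 2.487 higher on the log2 scale at 6 h than at 3 h in injured cortex (adjusted p = 0.0308), but the single shams also differed, with -0.74 at 6 h and -2.61 at 3 h. Against the sham of the same time the Timp1 difference was 0.99 at 6 h and 0.37 at 3 h, and whether these 2 differ was not tested. From 12 to 48 h the changes were -2.013 for Adamts1 (adjusted p = 0.009), -0.8667 for Adamts9 (adjusted p = 0.00139), -0.5033 for Mmp3 (adjusted p = 0.0388) and -1.412 for Mmp9 (adjusted p = 0.0204). When the effect at each time was taken against the sham the study assigns to it, the 48 h effect minus the 12 h effect was called with limma for 0 members, with an unadjusted p under 0.05 for 5. Of all 14217 genes 29 were called in this contrast, and how many had an unadjusted p under 0.05 is not given here. The 48 h effect minus the 12 h effect was -3.39 ± 0.77 for Adamts1 (adjusted p = 0.118) and -0.995 ± 0.24 for Adamts9 (adjusted p = 0.13).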

How the results depend on the processing

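Counts are members called of 9. With only the sham of the same time as control, 0 instead of 3 were called at 3 h and 1 instead of 4 at 12 h. At 3 h the differences were then 2.08 ± 0.62 for Adamts1, 0.54 ± 0.19 for Adamts9 and 1.36 ± 0.29 for Plat. These SEs were larger than those with 3 shams, and the count over all genes with this control is not given here. With only the 2 groups compared in the model, the counts were 8 instead of 3 at 6 h, 2 instead of 4 at 12 h, 0 instead of 1 at 48 h against the early shams, 4 instead of 1 from 3 to 6 h and 1 instead of 4 from 12 to 48 h. Quantile normalization gave 7 at 6 h, 2 at 48 h against the early shams and 5 from 3 to 6 h (Plat lower, 4 higher). Applied to values already centred by probe set, it gives all arrays the same spread and so rescales differences by array. Leaving out the genes of lowest SD gave 5 at 6 h and 2 at 48 h against the early shams. Variance moderation with a trend gave 0 from 3 to 6 h. Leaving injured 12 h array 2 out of the model, chosen after seeing the data, gave 7 at 6 h, 3 at 48 h against the early shams (Timp1 and Plaur added) and 5 from 3 to 6 h. Leaving out each compared array in turn gave 1 to 3 at 3 h, 0 to 1 at 48 h against the 48 h sham, 0 to 3 at 48 h against the early shams, 0 to 1 from 3 to 6 h and 2 to 5 from 12 to 48 h. With the probe set of the highest mean for each gene, the step of Adamts9 from 12 to 48 h reversed to 0.12, because the flat probe set then stands for the gene. On centred values a higher mean does not show a stronger signal. Same-numbered injured arrays did not deviate together (18 pairs, r from -0.188 to 0.257, 3 above 0.1), and with the replicate number as a block the call count from 12 to 48 h was 2 (Mmp3 and Mmp9 lost), with 1 from 3 to 6 h and 0 from 6 to 12 h. Of 1170 values of single members under alternatives, 1014 kept direction and side of the threshold, 48 gained a call, 53 lost one, 54 without a call changed sign and 1 called value reversed. Counts over all genes moved by more than 1.5 times as well. At 6 h, for example, they went from 379 to 886 with quantile normalization and to 796 with the 2 groups alone. At 3 h they went from 83 to 206 and 152. For most other settings the counts over all genes are not given here. The member counts above therefore do not show whether members moved more than other genes. The 2-group model could not be run with the lone 48 h sham, and centred values allow no filter on dim probes or reading of signal over background. The cause of these changes was not tested.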
